A study of Mus musculus with 6 samples.

Results

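The proteasome genes described here are the 50 protein-coding genes whose mouse symbol begins with Psma, Psmb, Psmc, Psmd, Psme, Psmf or Psmg followed by a digit and that were listed at 1 TPM or more in 3 or more of the 6 libraries. TPM is a transcript's share of its library, scaled to a fixed total, after division by transcript length, so levels can be compared between genes. The 50 genes are among 11753 identifiers that passed the same filter. Of 51 protein-coding genes with such a symbol, the one left out was Psmb11, a catalytic subunit known from the thymus, which was listed at 0 in every library. Another 4 identifiers with such a symbol are pseudogenes and were not used. By role, 15 genes encode the core particle, 3 the immunoproteasome subunits, 17 the regulatory cap, 7 assembly chaperones and 6 other activators and an inhibitor. The remaining genes, Psmc3ip and Psme3ip1, share the symbol only: they encode partners of a proteasome protein, not subunits.

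The cells were bone marrow-derived macrophages (BMMs), primary cells of wild-type mice that can fuse into bone-resorbing osteoclasts, with bone marrow as the labelled tissue. All 6 cultures stood for 5 days in medium that induces osteoclasts. The groups were 3 libraries without Visomitin (control 1 to 3) and 3 with it (Visomitin 1 to 3). Visomitin (SkQ1) is a plastoquinone antioxidant carried into mitochondria by a linked cation, and the sources used here state neither its dose nor the strain and age of the mice. The labels do not say whether libraries of a group came from separate mice or cultures, so the p-values rest on library-to-library spread alone, part or all of which may be technical.

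The proteasome is the protease that degrades ubiquitin-tagged proteins. Its barrel-shaped core has outer alpha rings that gate the channel and inner beta rings that hold the catalytic sites, and a cap of ATPases and lid subunits recognises, unfolds and feeds in the substrate. In cells exposed to interferon, and constitutively in many immune cells, the catalytic subunits Psmb5, Psmb6 and Psmb7 can be replaced by Psmb8, Psmb9 and Psmb10, which changes the peptides made for display on MHC class I. In the osteoclast lineage the proteasome is known for clearing inhibitors of NF-kB after stimulation of the receptor RANK.

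TPM hold no read depth, so no counting error can be given, and 3 libraries a group set the precision. In a principal component analysis the first component (44.1% of the variance) separated the groups, and the second (19.6%) set Visomitin 1 apart from the other Visomitin libraries. The culture held osteoclast transcripts: the summed level of 8 osteoclast markers was 11017 to 11969 TPM in controls and 2914 to 3499 TPM with Visomitin, and all 8 fell (median log2 fold change −2.03; adjusted p of 0.00046 or less, limma). The sum of 8 macrophage markers was 36102 to 40404 TPM in controls and 41738 to 46890 TPM with Visomitin. Most of it was Lyz2, at 32021 to 36284 TPM in controls and 38065 to 42065 TPM with Visomitin. Of the 8 markers, 6 had a log2 fold change above 0 and 2 below, and 6 did not pass. Lyz2 did not pass (log2 0.21, adjusted p = 0.184, limma), nor did Cd68, lower without overlap (−0.20, adjusted p = 0.163). The 2 called higher (2.08% of all identifiers) were Mrc1 (0.61 on the log2 scale, adjusted p = 0.012, limma) and Mertk (0.57, adjusted p = 0.022). Both lost the call without control 3 (adjusted p = 0.051 and 0.080, limma) or Visomitin 2 (0.054 and 0.096), and Mertk also without control 1 (0.053) or control 2 (0.064) and with no filter (0.059). All 7 lymphocyte markers and 5 of 6 dendritic cell markers stayed under 1 TPM in every library, with 5 and 2 of them at 0. Among 6 neutrophil markers, 4 were at 0 and S100a8 reached 8.82 to 19.5 TPM. Of 7 stromal markers, 4 were tested and none passed, and the sum of all 7 was 109 to 313 TPM in controls and 73.0 to 161 TPM with Visomitin. In bulk RNA, fewer cells of a type and less RNA per cell cannot be told apart, and the part of these marker differences in the proteasome values was not tested.

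Across the 50 proteasome genes, 1 rose with Visomitin (Psmb9, an immunoproteasome subunit), 1 fell (Psmd7, a lid subunit) and 48 did not pass the test (limma, Benjamini-Hochberg adjusted p over all 11753 identifiers, threshold 0.05). Among all tested identifiers, 7.1% were called in either direction, 2.08% higher and 5.03% lower, so the number of called members is near or below the background. The individual differences were small and mostly of the same sign: 41 of 50 members had a log2 fold change below 0, against 55.7% of all identifiers. The control and Visomitin libraries did not overlap, with Visomitin lower, for 30 members (background 18.4%) and, with Visomitin higher, for 1 member (background 11.9%). An unadjusted p under 0.05 with the lower value in Visomitin was found for 24 members, against 15.2% of all identifiers, and with the higher value for 1 member, against 9.12%. The median log2 fold change was −0.22 for the 50 members and −0.03 for all identifiers. Within the 7049 identifiers whose mean lay between 10 and 500 TPM, a range that holds all members but Psma8 and Psmc3ip, the median was −0.04 and 1454 had non-overlapping groups with Visomitin lower. The members below 0 numbered 39 with median-ratio scaling between libraries and 37 with quantile normalization.

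These counts depend on how libraries are weighted. When limma's array weights gave the libraries unequal weight, 25 members were called lower and 2 higher, in a fit that called 2835 of all identifiers, against 835 in the unweighted fit. Without Visomitin 1, 5 members were called lower, in a fit that called 981 of all identifiers. Without control 1, control 2, control 3 or Visomitin 2, none was, while the calls among all identifiers also dropped, to 309, 438, 362 and 368. Psmb9 was no longer called without control 1 or control 3.

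**Figure D1:**
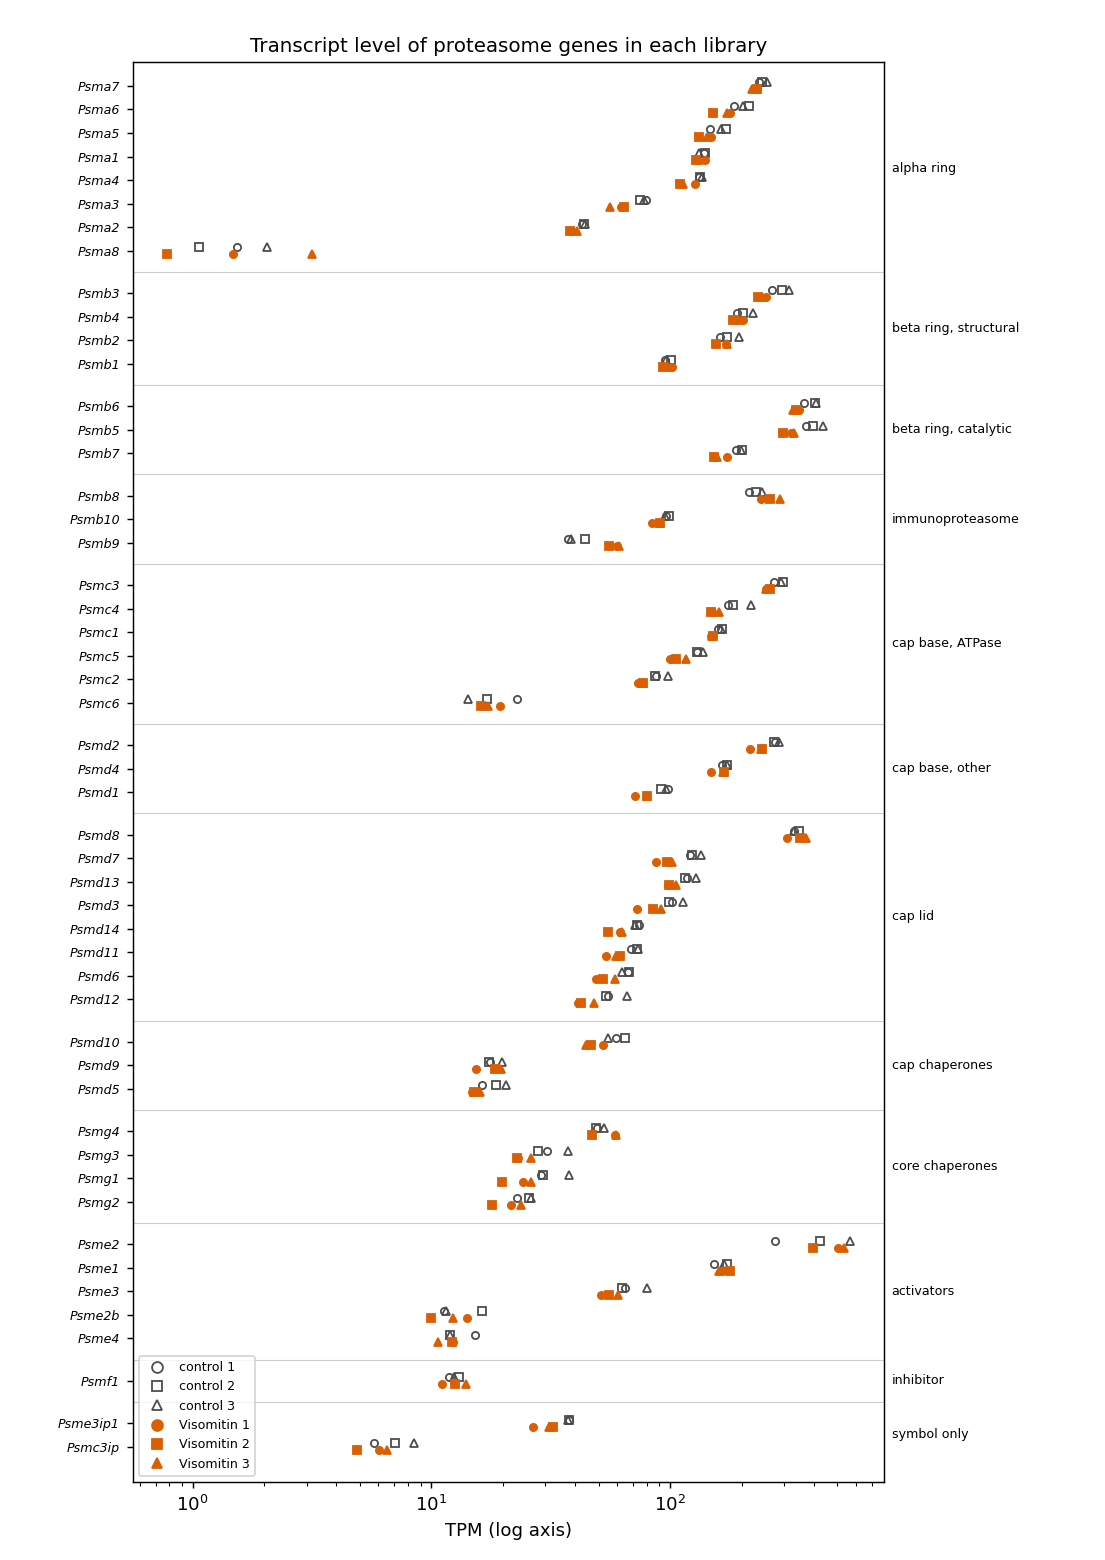
Level of each of the 50 proteasome genes in each library, in TPM on a log axis, ordered by role and, within a role, by mean level. Open grey symbols are the 3 control libraries and filled orange symbols the 3 Visomitin libraries. The fitted difference is below 0 for 41 of the 50 genes (55.7% of all identifiers). All orange symbols lie left of all grey ones for 30 genes (18.4% of all identifiers), and for Psmb9 they lie to the right without overlap.

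In the core particle, the most abundant transcripts were those of Psmb6 and Psmb5, both catalytic subunits. Psmb6 (caspase-like site) averaged 363 TPM over the 6 libraries and Psmb5 (chymotrypsin-like site) 358 TPM, followed by the structural beta subunit Psmb3 at 267 TPM. Leaving out Psma8, the core genes spanned 8.83-fold in level, down to 41.2 TPM for Psma2, although the finished particle holds its subunits in equal number. Psma8, an alternative alpha subunit known from testis, averaged 1.67 TPM.

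None of the 15 core genes passed the test. A log2 fold change below 0 was found for 13, against 55.7% of all identifiers, and the class median was −0.19. Psmb5 was measured at 370, 395 and 435 TPM in controls 1 to 3 and at 320, 295 and 330 TPM in Visomitin 1 to 3. Every Visomitin library was below every control, and the log2 difference of −0.34 ± 0.09 (SE) just missed the threshold (adjusted p = 0.053, limma). Psmb5 shares 71.7% of its 31-base transcript words with other annotated genes, of which the closest, the pseudogene Gm3375, was listed at 0, so its level carries some uncertainty. Psmb7, the trypsin-like site, stood at 189, 199 and 197 TPM in controls and 173, 153 and 157 TPM with Visomitin, again without overlap (log2 −0.27, adjusted p = 0.079, limma). Its gene bounds in the GENCODE annotation overlap those of Nek6, which averaged 10.5 TPM, by 6571 bases on the opposite strand. For Psmb6 the values were 363, 402 and 406 TPM against 347, 336 and 327 TPM. These groups did not overlap either, at a log2 difference of −0.21 (adjusted p = 0.138, limma).

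Matches to the antioxidant response element core stand in the promoters of Psmb5 and Psmb6. This element mediates responses to oxidative stress, and any part it has in the values here was not tested. The sequences are from RefSeq (GRCm38.p6), read 5′ to 3′ on the gene's own strand (minus for Psmb5, plus for Psmb6), upstream of the transcription start, with the antioxidant response element core TGACNNNGC in capitals.
Psmb5, chr14:54618023-54618142: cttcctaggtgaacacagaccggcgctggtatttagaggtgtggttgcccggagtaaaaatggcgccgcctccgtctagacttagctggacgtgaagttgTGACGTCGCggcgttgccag
Psmb6, chr11:70525237-70525356: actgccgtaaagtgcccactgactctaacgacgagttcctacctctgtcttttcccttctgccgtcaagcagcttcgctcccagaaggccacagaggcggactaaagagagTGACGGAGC
The match lies 47 to 39 bases before the start in Psmb5 and 9 to 1 bases before it in Psmb6. The printed Psmb5 sequence stops short of the RefSeq start, since an exon in the GENCODE annotation covers bases nearer to it. Of the 42 members with a promoter in the table, 5 (11.9%) hold this core on either strand within 250 bases upstream, namely Psmb5, Psmb6, Psmc6, Psmd12 and Psmd9, against 11.5% of 27025 genes. The share is that of promoters at large. No promoter was available for Psmb7 or Psmd7, so these were not searched.

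The alpha ring, which gates the core, had 7 of 8 genes below 0 (55.7% of all identifiers) and a median log2 fold change of −0.16. Psma7, its most abundant gene, was at 235, 243 and 253 TPM in controls and 229, 231 and 219 TPM with Visomitin. The groups did not overlap, but the log2 difference was only −0.11 (adjusted p = 0.413, limma). The alpha gene nearest the threshold, named after its values were seen, was Psma3, with 78.9, 74.4 and 77.6 TPM against 62.3, 64.2 and 56.1 TPM (log2 −0.34, adjusted p = 0.055, limma). All Visomitin libraries lay below the controls. Psma3 shares 16.2% of its 31-base transcript words with the processed pseudogene Gm13835, which was itself listed at 25.6 to 42.9 TPM, so its level is uncertain. Psma8 was at 1.54, 1.06 and 2.04 TPM in controls and 1.47, 0.78 and 3.15 TPM with Visomitin, a spread in which no difference could be seen. Psma1 was nearly level at a log2 fold change of −0.04, and its sign turned with median-ratio scaling (0.0016) and quantile normalization (0.04).

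Of the 4 structural beta subunits, only Psmb3 had groups that did not overlap, with 266, 292 and 315 TPM in controls and 252, 233 and 242 TPM with Visomitin (log2 −0.26, adjusted p = 0.106, limma). Psmb4, Psmb2 and Psmb1 overlapped, at log2 fold changes of −0.09, −0.08 and 0.01.

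Of the 3 immunoproteasome subunits, 1 rose (2.08% of all identifiers) and 2 did not pass, and differences between them were not tested. Psmb9 was at 37.3, 44.0 and 38.5 TPM in controls and 59.9, 55.6 and 61.2 TPM with Visomitin. The lowest Visomitin library stood above the highest control. Its mean went from 39.9 ± 3.55 to 58.9 ± 2.95 TPM (SD, n = 3), a rise of 47.5%, with a log2 fold change of 0.55 ± 0.10 (SE; 95% interval 0.33 to 0.77; adjusted p = 0.014, limma). The call was lost without control 1 (log2 0.51, adjusted p = 0.068, limma) or control 3 (0.53, adjusted p = 0.058). The direction held in all 16 alternative analyses, but many of these could not have turned it. The filters, dropping limma's variance trend and the block for the library number left the estimate itself unchanged. With groups that do not overlap, leaving out a library cannot turn the sign either.

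Psmb8, the chymotrypsin-like immuno subunit, was at 214, 228 and 241 TPM in controls and 239, 262 and 287 TPM with Visomitin. Visomitin 1 lay under control 3, so the groups overlapped, and the log2 difference of 0.20 (95% interval −0.01 to 0.41) did not pass (adjusted p = 0.224, limma). Psmb10, the trypsin-like immuno subunit, had the opposite sign, with 95.7, 98.7 and 95.1 TPM in controls and 83.8, 90.5 and 90.4 TPM with Visomitin. Every Visomitin library was lower, yet the log2 difference of −0.13 did not pass (adjusted p = 0.354, limma). By level, Psmb8 was the main immuno transcript, at a mean of 245 TPM against 92.3 TPM for Psmb10 and 49.4 TPM for Psmb9.

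Psmb9 and Psmb8 lie in the MHC region of chromosome 17 in the order Psmb9, Tap1, Psmb8, Tap2, where Tap1 and Tap2 encode the transporter that carries proteasome-made peptides into the endoplasmic reticulum. The starts of Psmb9 and Tap1 are 225 bases apart on opposite strands in RefSeq, so a short stretch serves as upstream sequence for both. The sites found there, and the gamma-activated site of Psmb8, are shown on the strand of the named gene (minus for Psmb9, plus for Psmb8), 5′ to 3′, from GRCm38.p6, with the motif in capitals.
Psmb9 CCAAT box, read as its reverse complement, chr17:34187331-34187360: cctgcaccgcgcgcagccgctgATTGGaaa
Psmb9 GC box, chr17:34187368-34187397: tgcgcgatgatgGGGCGGggcctcagtctg
Psmb8 gamma-activated site, chr17:34198088-34198117: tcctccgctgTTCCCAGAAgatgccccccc
The CCAAT match lies 8 to 4 bases and the GC box 55 to 50 bases upstream of the Psmb9 start, and the Psmb8 match lies 97 to 89 bases upstream of its start. These starts are those of RefSeq. In the GENCODE annotation, exons of the same gene overlap each of these printed stretches, so the sites may lie within transcribed sequence. Neither the gamma-activated site TTCNNNGAA nor the core of the interferon-stimulated response element was found in the Psmb9 window of 250 bases. TTCNNNGAA was found in 2 of 42 member promoters (4.76%, Psmb8 and Psmg1; 8.13% of all genes) and the interferon-stimulated core in 3 (7.14%, Psmb3, Psmd4 and Psmd9; 3.46% of all genes). CCAAT was in 15 (35.7%; 37.5% of all genes) and GGGCGG in 23 (54.8%; 35.4% of all genes), all on either strand.

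Tap1 had the same sign as Psmb9: 41.8, 50.9 and 46.5 TPM in controls and 49.7, 64.3 and 66.7 TPM with Visomitin. Visomitin 1 lay within the control range, and the log2 difference of 0.36 did not pass (adjusted p = 0.138, limma). In the GENCODE annotation, which draws the gene bounds differently from RefSeq, Psmb9 and Tap1 overlap by 212 bases on opposite strands. The libraries were made with a stranded kit, but the sources used here do not say whether the counting used strand, so reads in that stretch cannot be assigned with certainty.

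Setting each immuno subunit against the constitutive subunit it replaces gives a ratio that depends little on the scaling of a library. The ratios and their tests used TPM + 1, and the shares plain TPM. Psmb9 made up 9.31%, 9.85% and 8.67% of the summed TPM of Psmb9 and Psmb6 in controls and 14.7%, 14.2% and 15.8% with Visomitin. All Visomitin libraries were above all controls, and the ratio was 1.70-fold higher (log2 difference 0.76; exact permutation p = 0.1, two-sided, adjusted over 3 pairs 0.15). The share of Psmb8 in the sum with Psmb5 was 36.6%, 36.6% and 35.7% in controls and 42.7%, 47.0% and 46.5% with Visomitin. Here too the groups did not overlap (1.46-fold, log2 0.54; exact permutation p = 0.1, adjusted 0.15). Psmb10 and Psmb7 differed less: 33.7%, 33.2% and 32.6% against 32.6%, 37.2% and 36.5%, with Visomitin 1 inside the control range (1.11-fold, log2 0.15; exact permutation p = 0.3, adjusted 0.3). This log2 difference was 0.23 without Visomitin 1 and 0.09 without Visomitin 2. With 3 libraries against 3 the exact test cannot give a p under 0.1, so none of the 3 pairs could have passed. The shares are of transcripts and say nothing of assembled particles.

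**Figure D2:**
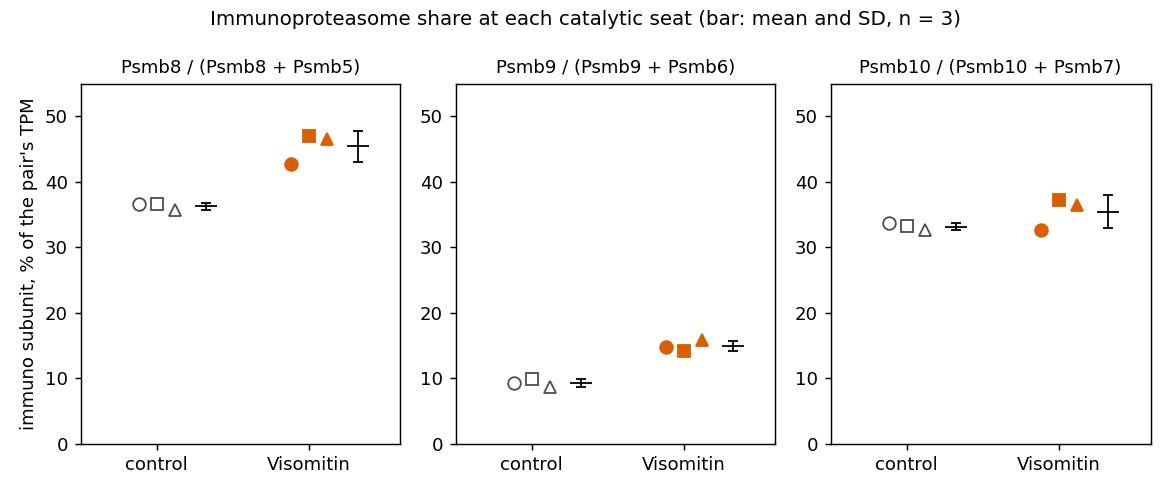
Share of the immunoproteasome subunit in the summed TPM of the immuno and constitutive subunit of each catalytic site, in percent, for each library (circle, square and triangle for libraries 1, 2 and 3; open for control, filled for Visomitin), with the mean and SD (n = 3) beside. The Psmb8 and Psmb9 shares do not overlap between groups, while Visomitin 1 falls among the controls for Psmb10.

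The regulatory cap had the most uniform sign. Of its 17 genes, 16 had a log2 fold change below 0, against 55.7% of all identifiers. Non-overlapping groups with Visomitin lower were found for 14, against 18.4% of all identifiers. The class median was −0.28. Psmd7, a lid subunit that pairs with the deubiquitinase Psmd14, was at 121, 123 and 135 TPM in controls and 87.1, 96.8 and 102 TPM with Visomitin. The highest Visomitin library was below the lowest control. Psmd7 fell by 24.5%, from 126 ± 7.40 to 95.3 ± 7.52 TPM (SD, n = 3), with a log2 fold change of −0.40 ± 0.09 (SE; adjusted p = 0.035, limma). Its call is weak: the adjusted p was 0.095, 0.089 and 0.127 without control 1, 2 or 3 and 0.107 without Visomitin 2. It was 0.072 when low genes were kept and 0.074 without limma's variance trend. The direction held throughout the 16 alternatives. As for Psmb9, the filters, the trend, the block and leaving out a library could not have turned it.

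Within the lid, 7 of 8 genes had non-overlapping groups with Visomitin lower (18.4% of all identifiers), and the median log2 fold change was −0.29. The exception was Psmd8, the most abundant lid gene, with 329, 346 and 329 TPM in controls and 306, 347 and 368 TPM with Visomitin. Its groups overlapped, at a log2 fold change of 0.02 that turned to −0.04 without Visomitin 3. Psmd12, the least abundant, was at 54.6, 54.0 and 65.8 TPM in controls and 40.9, 42.1 and 47.8 TPM with Visomitin. That is as large a log2 difference as that of Psmd7 (−0.40), but with a wider spread it did not pass (adjusted p = 0.065, limma). Psmd14, which removes ubiquitin chains from the substrate, had 74.0, 72.4 and 71.3 TPM against 61.5, 55.04 and 62.6 TPM (log2 −0.28, adjusted p = 0.092, limma), a separation without overlap; it was named for its role after the values were seen.

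The 6 ATPases that unfold the substrate had a median log2 fold change of −0.21, with adjusted p from 0.074 to 0.958 (limma). Psmc3, the most abundant, was at 270, 296 and 290 TPM in controls and 251, 261 and 251 TPM with Visomitin. No Visomitin library reached the controls (log2 −0.16, adjusted p = 0.215, limma), but Psmc3 overlaps Slc39a13 on the opposite strand. Psmc6, the least abundant at a mean of 17.8 TPM, was at 22.9, 17.1 and 14.2 TPM in controls and 19.3, 16.2 and 17.2 TPM with Visomitin. It was the only ATPase whose groups overlapped (log2 −0.02), and its sign turned with median-ratio scaling (0.02) and quantile normalization (0.03). Of the 3 other base subunits, Psmd1 and Psmd2, the large scaffold proteins, had log2 fold changes of −0.30 and −0.25 without overlap. Psmd4, a ubiquitin receptor, overlapped at −0.08 and turned to 0.02 with quantile normalization.

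**Figure D3:**
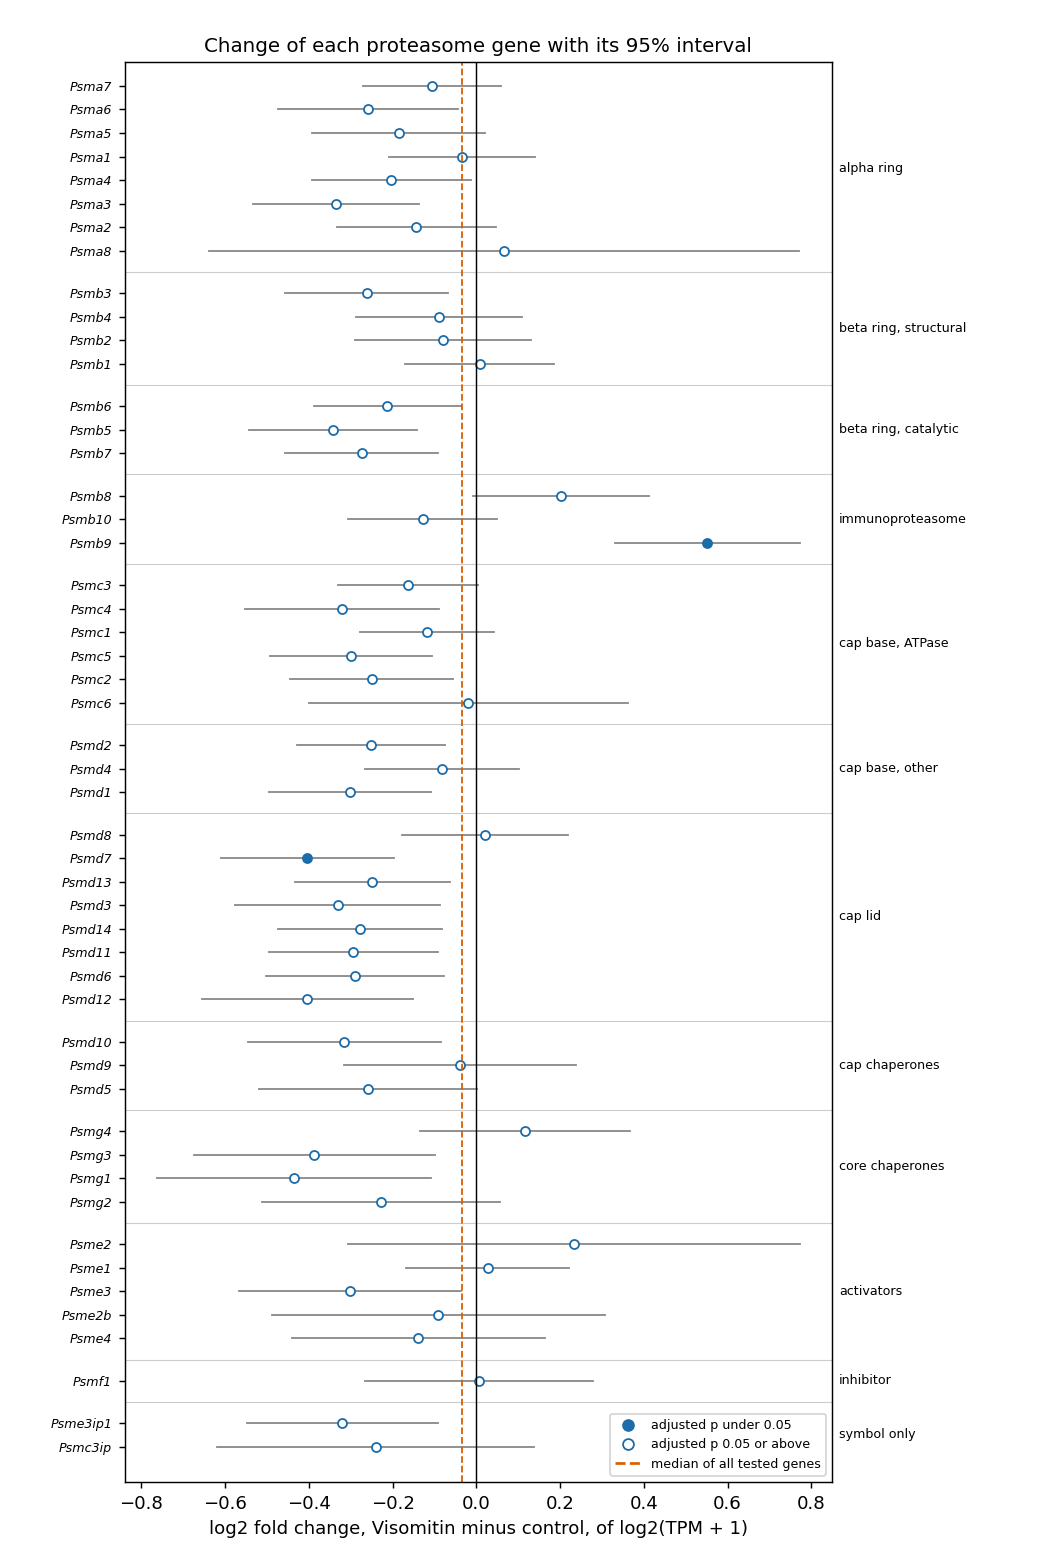
Log2 fold change (Visomitin minus control, of log2(TPM + 1)) of each proteasome gene with its 95% interval, by role; filled points passed the adjusted p of 0.05. The dashed line is the median of all tested genes (−0.03), and the points of the cap lie to its left except Psmd8 and Psmc6, with Psmb9 alone far to the right.

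The assembly chaperones, which build the particle and do not stay in it, numbered 7, and none passed the test. Of these, 6 were below 0 (55.7% of all identifiers) and the median log2 fold change was −0.26. For the core, Psmg1 was at 28.7, 29.4 and 37.6 TPM in controls and 24.2, 19.7 and 26.0 TPM with Visomitin, the most negative estimate among the 50 members (log2 −0.44, adjusted p = 0.108, limma). Its partner Psmg2 was at 22.7, 25.5 and 26.0 TPM against 21.6, 17.9 and 23.7 TPM. The Psmg1 groups did not overlap, while Visomitin 3 put Psmg2 within the control range (log2 −0.23, adjusted p = 0.307, limma). Psmg3 had 30.5, 27.8 and 37.2 TPM against 22.9, 22.8 and 26.1 TPM, without overlap (log2 −0.39, adjusted p = 0.105, limma). Its partner Psmg4 had 49.5, 48.7 and 52.7 TPM against 58.6, 46.9 and 59.2 TPM. Psmg4 was the one chaperone above 0 (log2 0.12, adjusted p = 0.565, limma), with overlapping groups and a sign that turned with array weights (−0.02).

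Cap assembly relies on Psmd5, Psmd9 and Psmd10, which bind the ATPases before the base closes. Psmd10 (gankyrin) was at 59.2, 64.4 and 55.03 TPM in controls and 52.2, 46.3 and 44.5 TPM with Visomitin. Psmd5 was at 16.3, 18.7 and 20.5 TPM against 14.8, 15.0 and 15.9 TPM. Neither overlapped between groups, at log2 fold changes of −0.32 (adjusted p = 0.101, limma) and −0.26 (adjusted p = 0.208). Psmd9 did overlap, with 17.6, 17.4 and 19.7 TPM against 15.3, 18.5 and 19.6 TPM (log2 −0.04, adjusted p = 0.880, limma), and its sign turned with quantile normalization (0.01).

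The alternative activators dock on the core in place of the cap, and as a class with the inhibitor they lay close to the background, with 3 of 6 below 0 and a median log2 fold change of −0.04, which turned to 0.01 with quantile normalization and 0.05 without control 2. Psme2, which forms the interferon-inducible activator PA28 with Psme1, was the most abundant of all 50 members at a mean of 449 TPM. It varied widely between libraries, with 275, 423 and 563 TPM in controls and 503, 395 and 535 TPM with Visomitin. The groups overlapped fully, and the log2 difference of 0.23 had a 95% interval of −0.31 to 0.77 (adjusted p = 0.595, limma) and turned to −0.04 without control 1. Its partner Psme1 was steady, at 151, 172 and 168 TPM against 164, 177 and 160 TPM (log2 0.03, adjusted p = 0.881, limma). A near copy, Psme2b, shares 76.5% of its 31-base words with Psme2 and was at 11.3, 16.3 and 11.5 TPM against 14.0, 9.98 and 12.3 TPM. Its own level is therefore uncertain (log2 −0.09, adjusted p = 0.792, limma).

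Psme3, the nuclear PA28 form that acts without ubiquitin, was the only activator without overlap, with 64.7, 62.5 and 79.7 TPM in controls and 51.1, 55.3 and 60.2 TPM with Visomitin. Its log2 difference of −0.30 did not pass (adjusted p = 0.157, limma). Psme4 (PA200, linked to histone turnover) was at 15.3, 11.9 and 11.9 TPM against 12.3, 12.2 and 10.7 TPM. Psmf1 (PI31), named for inhibiting the core in vitro, was at 11.9, 13.0 and 12.4 TPM against 11.02, 12.5 and 14.0 TPM. Both overlapped between groups, at log2 fold changes of −0.14 (adjusted p = 0.566, limma) and 0.01 (adjusted p = 0.981). Among the genes that share the symbol only, Psme3ip1, which encodes a nuclear partner of Psme3, was at 37.8, 37.6 and 37.3 TPM against 26.6, 32.2 and 31.1 TPM. The groups were separate, without passing (log2 −0.32, adjusted p = 0.096, limma). Psmc3ip, a meiotic recombination factor, was at 5.76, 7.04 and 8.45 TPM against 6.04, 4.87 and 6.53 TPM and overlapped (log2 −0.24, adjusted p = 0.418, limma).

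Summed over its genes, the core made up 2749 ± 143 TPM in controls and 2394 ± 92.1 TPM with Visomitin (SD, n = 3). The cap went from 2372 ± 70.8 to 2060 ± 105 TPM and the chaperones from 235 ± 12.3 to 204 ± 14.8 TPM. These 3 sums were lower by 12.9%, 13.2% and 13.2%. The immunoproteasome sum was 364 ± 15.2 TPM in controls and 409 ± 27.9 TPM with Visomitin, and that of the activators and the inhibitor was 692 ± 159 and 737 ± 67.0 TPM. No class sum was tested, since the classes were chosen with results in view.

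By library, 41 of 50 members were below their control mean in control 1, 24 in control 2 and 13 in control 3. With Visomitin the numbers were 41, 44 and 41. Control 1 thus had as many members under the control mean as Visomitin 1 or 3, but by less: the median difference from the control mean was −0.05 in control 1 and −0.18, −0.24 and −0.18 in Visomitin 1 to 3 on the log2 scale. In the mean over the core genes, control 1 stood at −0.06, and Visomitin 1 to 3 at −0.12, −0.25 and −0.12. The cap separated further, with control 2 lowest among controls at −0.02 and Visomitin 1 to 3 at −0.31, −0.23 and −0.17. The order of the Visomitin libraries differed between the classes: Visomitin 2 was lowest for the core and the chaperones, and Visomitin 1 for the cap.

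**Figure D4:**
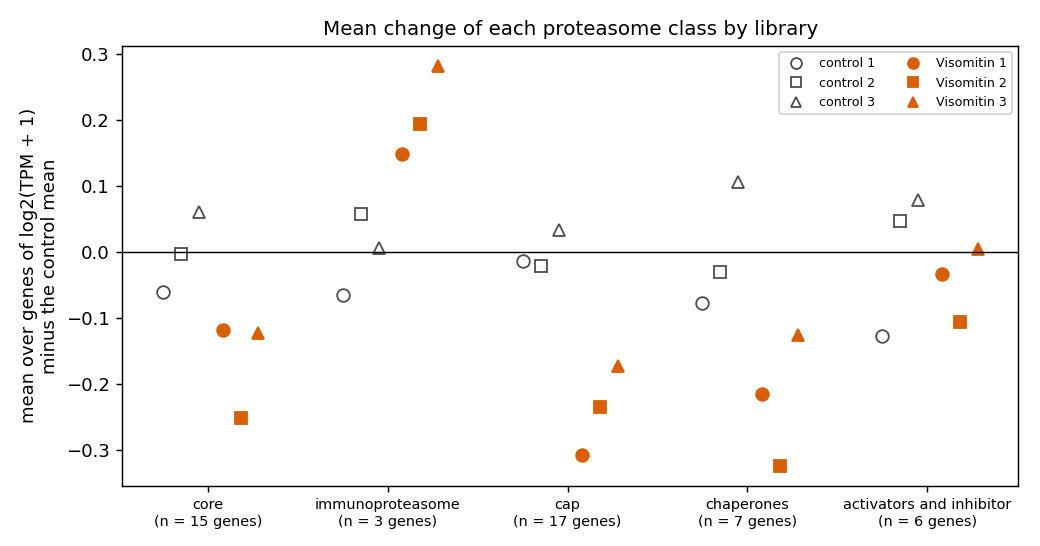
Mean over the genes of each class of log2(TPM + 1) minus its control mean, for each library (open grey for control, filled orange for Visomitin). Visomitin libraries lie below all controls for core, cap and chaperones, above all controls for the immunoproteasome, and among the controls for activators and inhibitor.

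Proteasome partners without a Psm symbol were given by a list of 23 genes, 22 of them in the table and tested. Of these, 1 rose (2.08% of all identifiers), 1 fell (5.03% of all identifiers) and 20 did not pass. Their median log2 fold change was −0.18. Among them, 11 had non-overlapping groups with Visomitin lower (18.4% of all identifiers) and 2 with Visomitin higher (11.9% of all identifiers). Nfe2l1, the transcription factor known to induce proteasome genes when proteasome activity is short, was at 162, 186 and 152 TPM in controls and 208, 234 and 238 TPM with Visomitin. Every Visomitin library was above every control (log2 0.45, adjusted p = 0.035, limma). Any link between Nfe2l1 and the levels of the proteasome genes was not tested. The Nfe2l1 call was lost without control 1, control 3 or Visomitin 2 (adjusted p = 0.121 each, limma), without Visomitin 3 (0.083), with no filter (0.091) and without the trend (0.074).

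Vcp, the ATPase that extracts ubiquitin-tagged proteins for the proteasome, was at 314, 301 and 313 TPM in controls and 226, 256 and 249 TPM with Visomitin. It fell by 21.2% with no overlap (log2 −0.34, adjusted p = 0.036, limma). This call held without Visomitin 1 and was lost without any other library (adjusted p from 0.066 without Visomitin 3 to 0.131 without control 1, limma; 0.091 and 0.122 without control 2 or 3, 0.083 without Visomitin 2), with no filter (0.066) and without the trend (0.087). Zfand5, known to stimulate the proteasome, was at 39.0, 37.3 and 31.3 TPM against 28.0, 25.5 and 24.1 TPM and just missed the threshold (log2 −0.45, adjusted p = 0.051). Adrm1, a ubiquitin receptor of the cap, was at 86.6, 85.3 and 89.97 TPM against 67.3, 74.8 and 72.7 TPM (log2 −0.28, adjusted p = 0.077, limma). Neither overlapped between groups. Pomp, the core assembly factor, and Sem1, a small lid subunit, were named for their roles after their values were seen. Pomp was at 558, 612 and 508 TPM against 502, 480 and 429 TPM (log2 −0.25, adjusted p = 0.162, limma), without overlap, and Sem1 overlapped (log2 −0.02).

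The users of proteasome-made peptides were read from a list of 13 genes of MHC class I processing and its inducers, whose median log2 fold change was 0.0020. Among them, 1 rose (2.08% of all identifiers), 1 fell (5.03% of all identifiers) and 11 did not pass. H2-K1, a class I heavy chain, was at 1378, 1516 and 1394 TPM in controls and 1774, 1942 and 2003 TPM with Visomitin, without overlap (log2 0.41, adjusted p = 0.021, limma). The call was lost without control 1 (0.096), control 3 (0.089), Visomitin 2 (0.086) or Visomitin 3 (0.058), with no filter (0.091) and without the trend (0.061). Calr, a chaperone of the endoplasmic reticulum that helps class I fold, was at 1163, 1118 and 1222 TPM against 672, 814 and 824 TPM. It fell by 34.1%, the groups far apart (log2 −0.61, adjusted p = 0.0092, limma), and missed the threshold only without control 1 (0.0501) and with no filter (0.052) among the 16 alternatives. B2m, the class I light chain, was at 2778, 3049 and 2752 TPM against 3800, 3404 and 3101 TPM, a separation that did not pass (log2 0.26, adjusted p = 0.138, limma).

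Irf1 and Nlrc5, which encode inducers of immunoproteasome or class I genes, did not pass the test. Irf1 was at 50.4, 53.9 and 36.5 TPM in controls and 52.2, 61.6 and 48.9 TPM with Visomitin (log2 0.22, adjusted p = 0.436, limma). Its groups overlapped, and the log2 value was 0.05 without control 3 and 0.12 without Visomitin 2. Nlrc5, the activator of class I genes, was at 22.0, 18.5 and 15.8 TPM against 15.3, 14.5 and 13.9 TPM, lower in each Visomitin library than in any control (log2 −0.33, adjusted p = 0.166, limma). Tap2, named for its place beside Psmb8 after its values were seen, had a sign opposite to Tap1. It was at 60.4, 62.0 and 59.7 TPM against 46.1, 57.1 and 52.8 TPM, without overlap (log2 −0.22, adjusted p = 0.207, limma).

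**Figure D5:**
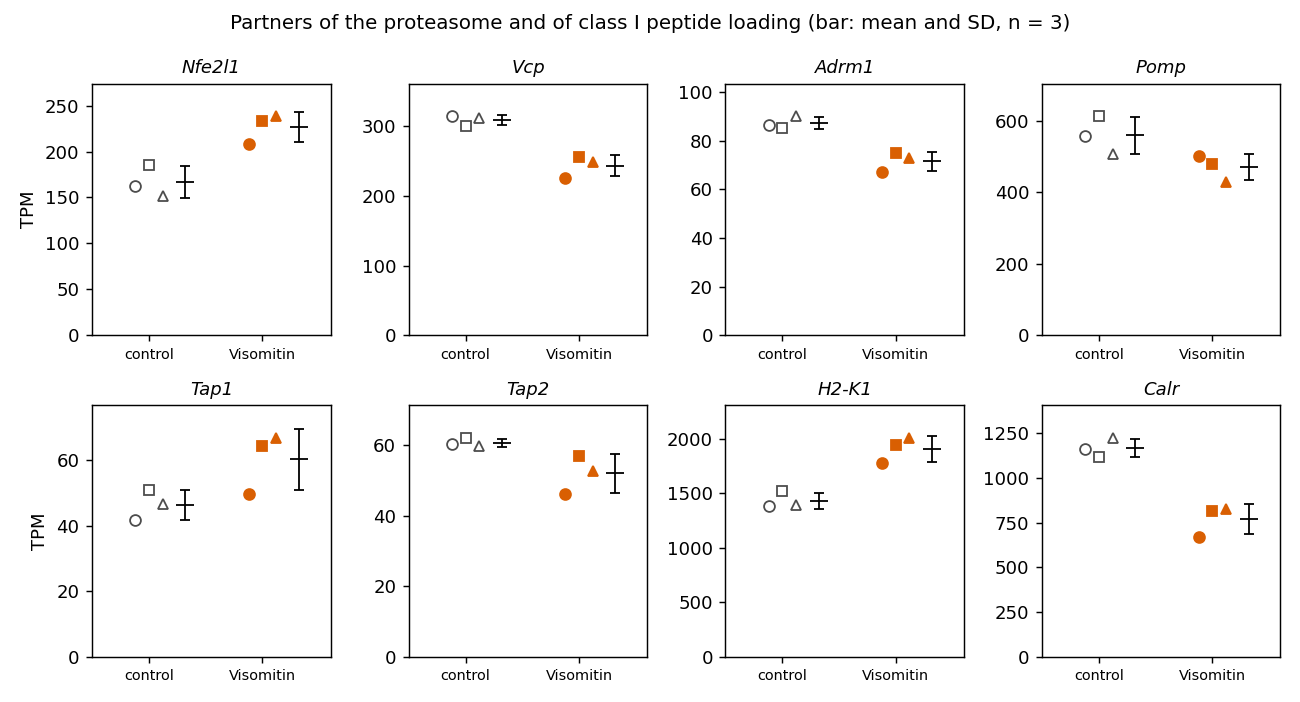
Level in TPM of 8 genes that work with the proteasome or use its peptides, for each library (circle, square and triangle for libraries 1, 2 and 3; open for control, filled for Visomitin), with the mean and SD (n = 3). Nfe2l1 and H2-K1 lie higher and Vcp, Calr, Adrm1, Pomp and Tap2 lower with Visomitin, all without overlap. Of these, Adrm1, Pomp and Tap2 did not pass the test. Tap1 overlaps between groups.

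Ubiquitin and its activating and conjugating enzymes, a list of 11 genes, had no gene that passed and a median log2 fold change of −0.04. At an unadjusted p under 0.05 (limma), 1 was lower (15.2% of all identifiers) and 1 was higher (9.12% of all identifiers). The lower one was Ube2k (log2 −0.25, adjusted p = 0.137, limma) and the higher one Ube2r2 (log2 0.29, adjusted p = 0.161), both conjugating enzymes and both without overlap between groups. Ube2n, another conjugating enzyme, followed at −0.19 (adjusted p = 0.274, limma), with groups that overlapped. The activating enzyme Uba6 was at −0.28 (adjusted p = 0.353, limma), without overlap.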

How the data were processed

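The deposited values are TPM per Ensembl gene that the authors computed within each library. Per the labels' protocols, DNase-treated TRIzol RNA went into a stranded mRNA kit, and per the submitters' processing notes fastp, HISAT2 and StringTie were used. The sources used here state no versions, genome build, annotation or counting settings. Symbols came from a reference table (51884 of 57180 identifiers matched). The 11753 identifiers listed at 1 TPM or more in 3 or more of 6 libraries were fitted as log2(TPM + 1) with limma 3.58.1 (R 4.3.3; eBayes with trend, group as the only term), two-sided, with Benjamini-Hochberg adjustment and a threshold of 0.05. Fold changes are on this scale, which understates those of low genes. Exact permutation tests of the ratios used scipy 1.17.1. The fit was tested on simulated data, with a pass mark for recovery only at a change larger than that of any member.

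The members and lists were chosen with earlier results of these data known. Named were members that passed, Psmb5 to Psmb10, the activators, inhibitor and chaperones, the highest and lowest alpha, ATPase and lid genes, and up to 4 genes of lowest p per main list, with Nfe2l1, Irf1, Nlrc5 and Tap1. Other genes named were chosen after their values were seen. Some list genes are not reported here and are left out of the list counts. Promoters from RefSeq (GRCm38.p6) were found for 42 of 50 members. The 16 alternatives were pseudocounts, filters, scalings, variance models, a block for the library number, TPM without mitochondrially encoded genes and leaving out each library.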

Additional observations from a re-analysis of the deposited data

How the results depend on the processing

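Of the 50 members, 38 kept their direction under all 16 alternatives. The medians of core, immunoproteasome, cap and chaperones kept theirs under the same 16, and the 3 ratios under the 11 alternatives that apply to them. Not all of these could turn a sign. The filters, the fit without the trend and the block leave the estimate of each gene as it was. Scaling a library hardly moves a ratio: Psmb8 over Psmb5 stayed at log2 0.544 with median-ratio scaling and without mitochondrially encoded genes. The median of the activators and inhibitor turned to 0.012 with quantile normalization and ran from −0.080 to 0.050 when a library was left out. The members called lower (1 as reported) numbered 0 with no filter or without the trend, 2 with quantile normalization, 3 with the replicate block (Psmb5, Psmd7 and Psmd12) or with TPM without mitochondrially encoded genes, 4 with median-ratio scaling, 25 with array weights, and 0 to 5 when a library was left out. Calls among all identifiers moved too, from 835 to 381 with no filter, 630 without the trend, 1210 with quantile normalization, 1107 with the block, 910 without mitochondrially encoded genes, 1163 with median-ratio scaling, 2835 with array weights and 309 to 981 when a library was left out. Those called higher (1 as reported) numbered 2 with array weights and 0 to 1 when a library was left out. With quantile normalization the class medians moved to −0.10 for the core, 0.27 for the immunoproteasome and −0.22 for the cap. The chaperone median moved to −0.36 with array weights, and the immunoproteasome median ran from 0.14 to 0.27 when a library was left out. The causes were not tested.

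Sign changes of the log2 fold change occurred with median-ratio scaling (Psma1 0.0016, Psmc6 0.016), with quantile normalization (Psma1 0.044, Psmc6 0.034, Psmd4 0.019, Psmd9 0.013) and with array weights (Psma8 −0.23, Psmb1 −0.041, Psmd9 0.042, Psmg4 −0.020). When a library was left out, these genes ranged across 0: Psma8 from −0.26 to 0.35, Psmb1 from −0.022 to 0.037, Psmc6 from −0.17 to 0.15, Psmd8 from −0.038 to 0.094, Psmd9 from −0.11 to 0.060, Psme1 from −0.030 to 0.064, Psme2 from −0.043 to 0.47, Psme2b from −0.20 to 0.069 and Psmf1 from −0.071 to 0.087. Psma8 has no value with a mean filter of 5 TPM. Libraries of the same number had residual correlations of 0.046, 0.02 and 0.173, and only number 3 correlated best with its own number, so the numbers are not shown to pair libraries. TPM give no depth, so small differences of low genes such as Psma8 could not be resolved here.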
